A study of Bos taurus with 12 samples.

Results

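Inflammatory cytokines and chemokines of the endometrium, the lining of the uterus, were followed in grazing dairy cows (Bos taurus) across 4 classes of progesterone concentration. The genes were the interleukin-1 ligands IL1A and IL1B, their antagonist IL1RN, the cytokines IL6 and TNF, the CXC chemokines CXCL8, CXCL2 and CXCL5, and the CC chemokines CCL2 and CCL20. They were taken by symbol from the count table. All 10 were found among its 13930 gene symbols, and all 10 had enough reads to be tested, as had 10959 genes in all.

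Each library was made from messenger RNA of an endometrial biopsy, and the progesterone concentration was that recorded for day 4 of the estrous cycle. The 4 classes held 3 libraries each. Progesterone was under 0.25 ng/ml in very low samples (titled ANE) and under 1.4 in low samples (LPP4), a bound labelled mg/dl. It was over 2.5 ng/ml in high samples (HPP4) and over 20 ng/ml in very high samples (SO). The titles are not explained in the sources used here, nor are age, breed or any treatment given, and the labels do not say whether the 3 libraries of a class came from 3 cows. The p-values below therefore reflect only how much these libraries varied, which may be technical.

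Interleukin-1 and TNF are early alarm signals of inflammation that act through the transcription factor NF-kB, which in turn switches on IL6 and many chemokines. Chemokines with the glutamate-leucine-arginine motif, such as CXCL8, CXCL2 and CXCL5, draw neutrophils, CCL2 draws monocytes, and CCL20 draws dendritic cells and lymphocytes that carry its receptor CCR6. In the cow uterus these genes are known from the response to bacteria after calving, when epithelial and stromal cells as well as leukocytes make them. IL1RN occupies the interleukin-1 receptor without signalling and so limits the response.

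Libraries held 3772564 to 8379489 counted reads, and the smallest was very low replicate 2. Markers of tissue layers differed along the classes. Levels are given as CPM, reads per 1000000 of the TMM-scaled library size. The mean log2 CPM of 11 smooth muscle markers was 9.18 to 10.25 in the very high and 9.29 to 10.52 in the high libraries, and it was 4.58 to 5.78 in the low libraries. Very low replicates 2 and 3 stood at 4.56 and 6.05 and very low replicate 1 at 11.56, and in that replicate the 11 epithelial markers averaged 3.85, against 6.61 to 8.82 in the other 11 libraries. In biopsies, fewer cells of a type and less RNA per cell cannot be told apart.

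The interleukin-1 genes varied over a wide range within the classes. IL1B, the main secreted interleukin-1 of myeloid cells, had 0.53, 133.2 and 4.03 CPM in very low replicates 1, 2 and 3, 8.83, 103.9 and 7.38 CPM in the low, 3.22, 2.17 and 26.9 CPM in the high and 6.64, 1.62 and 2.64 CPM in the very high replicates. A single library stood far above its class mates in the very low, low and high classes, and the very high class, with no such library, had the smallest spread. The very high libraries lay just below the low ones (at most 6.64 against at least 7.38 CPM), and every other pair of classes overlapped.

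IL1A, which is released from damaged epithelial cells, had 0.177, 14.5 and 1.56 CPM in very low replicates, 1.45, 9.47 and 2.17 CPM in the low, 0.403, 0.51 and 7.91 CPM in the high and 0.915, 0.623 and 0.264 CPM in the very high replicates 1, 2 and 3. Its 3 highest libraries were the same as those of IL1B, namely very low replicate 2, low replicate 2 and high replicate 3. At 1 to 74 reads a library, IL1A was counted less precisely than IL1B, which had 3 to 812 reads.

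IL1RN, the receptor antagonist, had 7.07, 507.8 and 16.8 CPM in very low replicates, 45.1, 284.0 and 20.7 CPM in the low, 10.7, 5.48 and 110.8 CPM in the high and 11.2, 3.49 and 4.75 CPM in the very high replicates. The antagonist was thus highest in the same 3 libraries as both of the ligands it opposes. In the gene table of a later cattle assembly, IL1A and IL1B lie on the same chromosome with 1 gene between them, and IL1RN lies on that chromosome with 8 genes between it and IL1B.

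The antagonist and its ligand did not keep 1 ratio. Per read of IL1B in the same library there were 1.69, 2.15 and 1.8 reads of IL1RN in the very high replicates, against 13.3, 3.81 and 4.16 in the very low replicates. The high replicates had 3.33, 2.53 and 4.12 and the low replicates 5.1, 2.73 and 2.8. The 3 very high libraries held the 3 lowest of the 12 ratios, and the 13.3 of very low replicate 1 rests on only 3 reads of IL1B. The ratio was chosen after its values were seen. With 3 libraries against 3, the exact permutation test (two-sided) cannot give a p below 0.1, and it gave 0.1 for the very high against the very low class (log2 difference -1.67, adjusted p = 0.267 over 8 such tests).

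**Figure D1:**
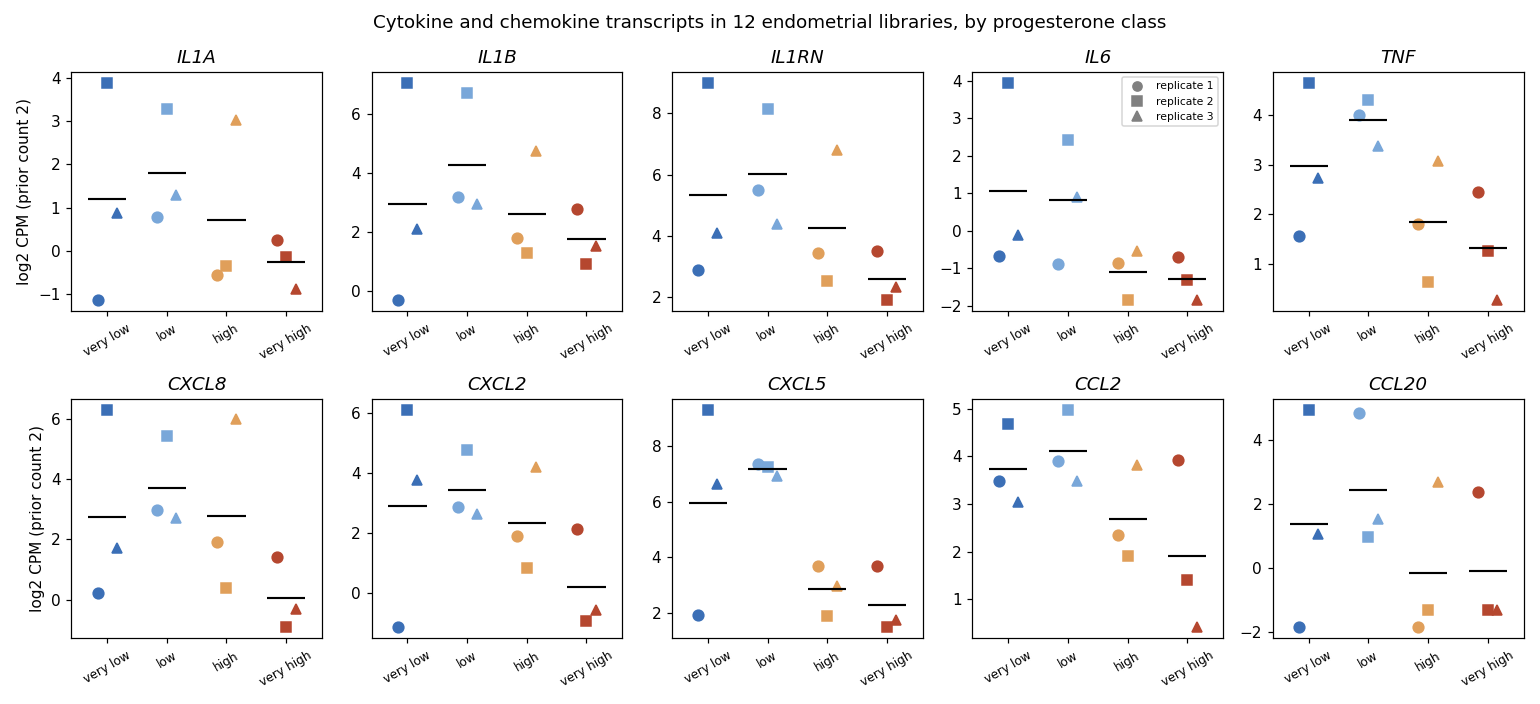
Level of each of the 10 genes on the log2 CPM axis (prior count 2) in the 12 libraries, grouped by progesterone class from very low to very high; symbols mark replicates and bars mark class means. Very low replicate 2 is the highest library for 9 of the 10 genes, and the 3 low libraries of CXCL5 lie close together (122.3 to 161.4 CPM) and above all 6 high and very high libraries.

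Among the other cytokines, IL6, which drives the acute phase response, was scarce. It had 0.353, 15.2 and 0.65 CPM in very low replicates, 0.264, 5.12 and 1.59 CPM in the low, 0.268, 0 and 0.409 CPM in the high and 0.343, 0.125 and 0 CPM in the very high replicates. The 6 libraries of the upper classes held at most 3 reads each, and counts of 0 in high replicate 2 and very high replicate 3 allow up to 0.382 and 0.396 CPM (3 reads, for counting error only). Very low replicate 1 and low replicate 1, with 2 reads each, lay within the range of the upper classes.

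TNF, an alarm cytokine made above all by macrophages, had 2.65, 25.0 and 6.37 CPM in very low replicates, 15.7, 19.6 and 10.1 CPM in the low, 3.22, 1.28 and 8.18 CPM in the high and 5.15, 2.12 and 0.923 CPM in the very high replicates. The 3 low libraries lay above the 3 high and the 3 very high libraries. The closest of these were low replicate 3 at 10.1 CPM and high replicate 3 at 8.18 CPM.

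Of the neutrophil-attracting chemokines, CXCL5 had the smallest spread within the low class. CXCL5 had 3.53, 630.1 and 99.7 CPM in very low replicates, 161.4, 149.6 and 122.3 CPM in the low, 12.6, 3.44 and 7.64 CPM in the high and 12.5, 2.49 and 3.03 CPM in the very high replicates. The lowest low library stood above the highest high and very high libraries, and very low replicate 1 lay within the range of the high and very high libraries. Within the low class the highest library had 1.32 times the lowest, a small range beside the 14.1 times of IL1B and the 13.7 times of IL1RN in that class.

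CXCL8, the principal neutrophil attractant in cattle, had 0.884, 78.0 and 2.99 CPM in very low replicates, 7.64, 43.0 and 6.22 CPM in the low, 3.49, 1.02 and 63.2 CPM in the high and 2.4, 0.249 and 0.528 CPM in the very high replicates. The mean of the high class, 22.6 ± 35.2 CPM (SD, n = 3), was as large as that of the low class, 19.0 ± 20.8 CPM, and it was set by high replicate 3. The very high libraries lay below those of the low class without overlap. The same held for IL1A, IL1B, IL1RN, TNF, CXCL2 and CXCL5, but not for IL6, CCL2 or CCL20. The share of all tested genes without overlap between the low and very high classes was not counted, so this is no trait of the named genes.

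CXCL2 had 0.177, 68.4 and 13.3 CPM in very low replicates, 6.98, 27.3 and 5.93 CPM in the low, 3.49, 1.53 and 18.3 CPM in the high and 4.12, 0.249 and 0.396 CPM in the very high replicates. GRO1 and CXCL3, which are close to CXCL2 in sequence, could share reads with it, so its count is uncertain. GRO1 was highest in the same 3 libraries, with 73.3 CPM in very low replicate 2, 35.3 CPM in low replicate 2 and 22.9 CPM in high replicate 3. CXCL3 was highest in low replicate 2 (196.9 CPM), with 180.2 and 165.7 CPM in very low replicates 3 and 2, and high replicate 3 (30.1 CPM) was not the highest of its class. CXCL8, CXCL5 and CXCL2 are neighbours in the later assembly, with 1 gene between CXCL8 and CXCL5 and 2 between CXCL5 and CXCL2.

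The neutrophil attractants CXCL5 and CXCL8 parted in high replicate 3, a ratio also chosen after its values were seen. Per read of CXCL8 that library held 0.121 reads of CXCL5 (56 reads against 463), where the other 11 libraries held 3.38 to 33.3. High replicate 3 had the second highest CXCL8 of all 12 libraries, while its CXCL5 lay between the other high libraries. Between the high and the low class the exact permutation test gave p = 0.2 for this ratio (log2 difference -3.31, adjusted p = 0.4 over the 8 tests). For the very high against the high class it gave the smallest possible p of 0.1 (log2 difference 2.55, adjusted p = 0.267).

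**Figure D2:**
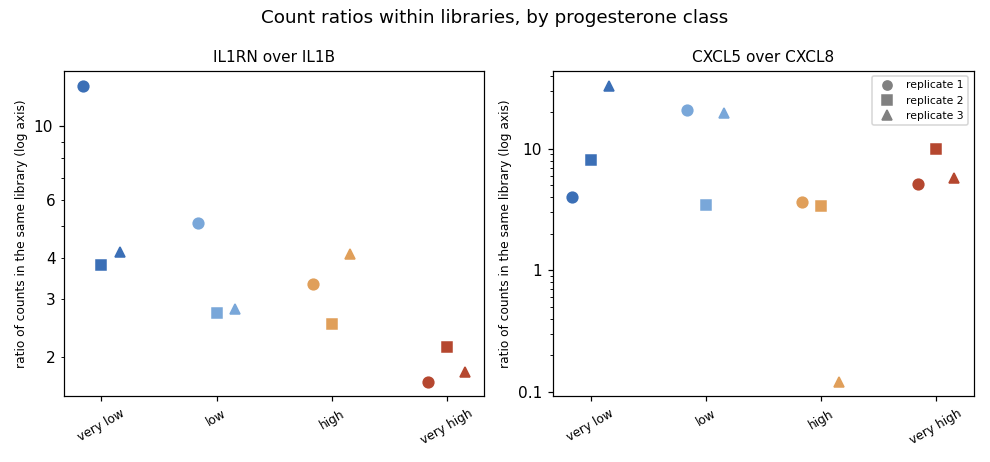
Ratio of read counts in the same library, on log axes, for IL1RN over IL1B and for CXCL5 over CXCL8, by progesterone class; each point is 1 library and symbols mark replicates. The very high libraries hold the lowest IL1RN over IL1B ratios (1.69 to 2.15), and high replicate 3 stands apart at 0.121 for CXCL5 over CXCL8.

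The CC chemokines each had a pattern of their own. CCL2 had 11, 25.3 and 7.93 CPM in very low replicates, 14.8, 31.1 and 10.9 CPM in the low, 4.83, 3.44 and 13.8 CPM in the high and 15, 2.37 and 1.06 CPM in the very high replicates. It was the only one of the 10 genes with its highest value outside very low replicate 2, in low replicate 2. CCL20 had 0, 30.5 and 1.82 CPM in very low replicates, 28.6, 1.66 and 2.61 CPM in the low, 0, 0.128 and 6.14 CPM in the high and 4.92, 0.125 and 0.132 CPM in the very high replicates. Low replicate 1, not low replicate 2, carried the CCL20 of the low class, and very high replicate 1 stood above the other 2 very high libraries. Counts of 0 for CCL20 in very low replicate 1 and high replicate 1 allow up to 0.53 and 0.402 CPM.

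**Figure D3:**
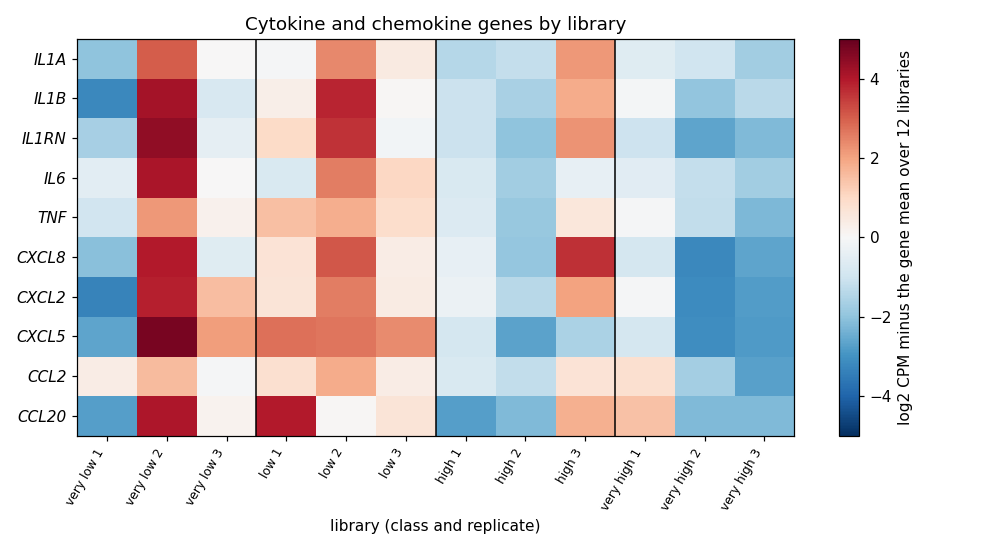
Level of each gene in each library as log2 CPM minus the mean of that gene over the 12 libraries, with libraries ordered by class and replicate and lines between the classes. Very low replicate 2 and low replicate 2 are high for most genes, high replicate 3 is high for the interleukin-1 genes, CXCL8 and CXCL2 but not for CXCL5 or IL6, and CCL20 is high in low replicate 1.

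Taking the genes together, very low replicate 2 was among the 3 highest libraries for all 10 genes, low replicate 2 for 9 and high replicate 3 for 6. Very high replicate 2 was among the 3 lowest for 9, very high replicate 3 for 8, high replicate 2 for 6 and very low replicate 1 for 5. Among the interleukin-1 genes, CXCL8 and CXCL2, the Pearson correlation of log2 CPM over the 12 libraries was 0.9 to 0.97 for the 10 pairs of genes, and 0.87 to 0.98 after the class means were removed. Pairs with CXCL5 had 0.7 to 0.9 and pairs with CCL20 0.56 to 0.83. These values describe libraries whose genes share depth and tissue markers.

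The spread between replicates was large for these genes. The biological coefficient of variation, the replicate spread left after counting noise, was 72.6% for TNF, 74.0% for CCL2 and 93.2% for CXCL5, and 110.4% to 167.8% for the other 7, against a median of 33.5% over all tested genes. For each of the 10, at least 91.5% of tested genes varied less. Class differences made up 60.8% of the variance of CXCL5 and 52.8% of that of TNF in log2 CPM, but 17.7% of that of IL1B and 20.9% of that of CCL20, with a median of 33.0% over all tested genes.

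Over the 4 ordered classes CXCL5 and IL6 fell in the edgeR test and no other of the 10 genes passed it. CXCL5 fell by 2.02 log2 units per class (SE 0.46, edgeR quasi-likelihood test, Benjamini-Hochberg adjusted p = 0.0328), and IL6 fell by 1.82 (SE 0.49, adjusted p = 0.0457 in the same edgeR fit). IL6 passed the filter on low counts only through 3 libraries of the very low and low classes and none of the high and very high, so it could enter the test only as a gene higher in the lower classes. With limma-voom neither passed (CXCL5 -1.25, adjusted p = 0.304; IL6 -1.13, adjusted p = 0.182), while DESeq2 called 5 of the 8 genes to which it gave an adjusted p, which left out IL1B and CXCL8. In edgeR 2 of 10, IL6 among them, passed with a falling slope, where 4.46% of all tested genes did so (7.48% in either direction). With a rising slope 0 of 10 passed, where 3.02% did. By unadjusted p under 0.05, 6 of 10 had a falling slope, where 16.7% of all tested genes did (27.9% in either direction). The 10 genes were chosen with earlier results of these data known, so setting their shares beside those of all genes is no test. The slopes of all 10 lay below 0, between -2.02 for CXCL5 and -0.53 for CCL2, with a median of -1.14, while 57.9% of all tested genes had a slope below 0 and their median was -0.04. The slopes were -1.55 for IL1RN, -1.31 for IL1B, -1.25 for CXCL2, -1.03 for CCL20, -0.98 for CXCL8, -0.91 for IL1A and -0.83 for TNF, with edgeR adjusted p between 0.0997 and 0.381.

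The slopes were not even steps. CXCL5 averaged 244.4 ± 337.4 CPM among very low libraries, 144.4 ± 20.1 in the low, 7.9 ± 4.59 in the high and 6.0 ± 5.61 CPM among very high libraries (SD, n = 3 each), and on a log scale the means of the low and the high class lay furthest apart of all neighbouring classes. IL6 averaged 5.41 ± 8.5, 2.32 ± 2.51, 0.226 ± 0.208 and 0.156 ± 0.174 CPM in the same order. The very low means of both genes were set by replicate 2. By medians the very low class lay below the low class, at 99.7 against 149.6 CPM for CXCL5 and 0.65 against 1.59 CPM for IL6. Both calls depended on single libraries: without very low replicate 2 the edgeR adjusted p was 0.0958 for CXCL5 and 0.228 for IL6. Of the 12 fits that each left out 1 library, CXCL5 passed in 5 (slopes -2.4 to -1.77) and IL6 in 4 (-2.09 to -1.18). The call of CXCL5 was lost without very low replicate 2 or any 1 of the 6 high and very high libraries, and that of IL6 without these or low replicate 3, at edgeR adjusted p of up to 0.228. Without very low replicate 1, IL1RN, TNF and CXCL2 passed as well (edgeR adjusted p of 0.0449, 0.0409 and 0.036).

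**Figure D4:**
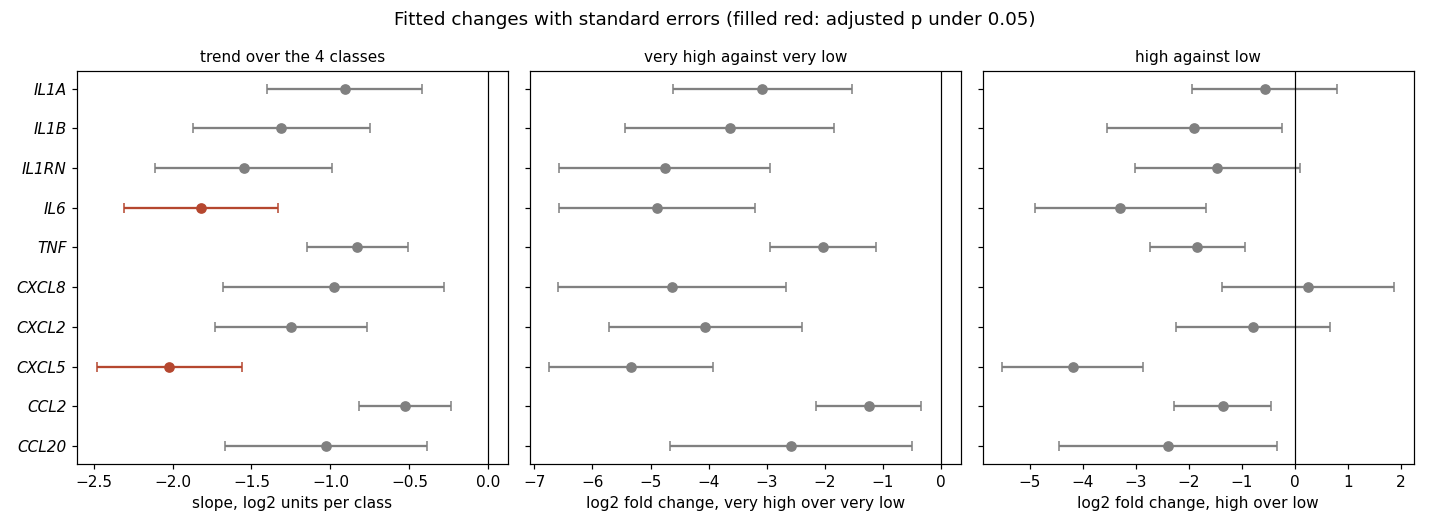
Fitted slope per class and fitted log2 fold changes of very high over very low and of high over low for each gene, with bars of 1 standard error; red marks an adjusted p under 0.05. CXCL5 (-2.02) and IL6 (-1.82) are the 2 slopes past the threshold, and all 10 estimates for very high over very low lie below 0 without passing it.

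In the very high against the very low class none of the 10 genes passed in edgeR, where 1.52% of all tested genes did, 0.411% with lower levels in the very high class. By unadjusted p under 0.05 there were 6, all lower in the very high class, against 13.4% of all tested genes (23.8% in either direction). DESeq2 called 4 of the 8 with an adjusted p and limma-voom 0 of 10, beside 1510 and 1 of the 10959 tested genes. All 10 estimates lay below 0, as did 57.6% of those of all tested genes. The log2 fold changes ran from -5.33 to -1.25 with a median of -3.85, against -0.12 over all tested genes, and the CPM ranges of both classes overlapped for 9 of the 10 (25.7% of tested genes had ranges without overlap, 12.2% with the very high class lower). The exception was IL6, whose nearest libraries stood at 0.343 CPM (3 reads) in the very high and 0.353 CPM (2 reads) in the very low class. CXCL5 averaged 6.0 ± 5.61 CPM among very high libraries and 244.4 ± 337.4 CPM among very low libraries (SD, n = 3 each; log2 fold change -5.33, SE 1.41, edgeR adjusted p = 0.0719). CXCL8 averaged 1.06 ± 1.17 CPM among very high libraries and 27.3 ± 43.9 CPM among very low libraries (log2 -4.63, SE 1.96, edgeR adjusted p = 0.184). IL1RN averaged 6.48 ± 4.14 CPM among very high libraries and 177.2 ± 286.3 CPM among very low libraries (log2 -4.76, SE 1.81, edgeR adjusted p = 0.149). The very low means rested on replicate 2: without it the log2 fold change was -0.85 for IL1RN, -0.84 for CXCL8 and -3.07 for CXCL5, and that of IL1B was 0.66, where it was -3.64 with all libraries.

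Between the high and the low class, the middle of the range, CXCL5 had 7.9 ± 4.59 CPM in the high and 144.4 ± 20.1 CPM in the low class (SD, n = 3 each). The log2 fold change was -4.19 with a standard error of 1.33, and it did not pass in edgeR (adjusted p = 0.361). TNF had 4.23 ± 3.56 CPM in the high and 15.1 ± 4.75 CPM in the low class (log2 -1.84, SE 0.9, edgeR adjusted p = 0.509). CXCL5 and TNF were the 2 of 10 whose CPM did not overlap, and both were lower in the high class, where 20.0% of tested genes had no overlap and 9.68% were lower in the high class without overlap. The estimates of 9 of 10 lay below 0 (51.9% of all tested genes). No gene of the table passed in this comparison in edgeR (0.0%), with 1125 genes (10.3%) at an unadjusted p under 0.05, among them CXCL5 alone of the 10. DESeq2 called 241 genes and limma-voom 0. CXCL5 passed in DESeq2 (adjusted p = 0.019) and when edgeR was given only the 6 high and low libraries (adjusted p = 0.0264). CXCL8 had a log2 fold change of 0.25, and without high replicate 3 it was -3.06. Without low replicate 2 the estimates of IL1A, IL1B, IL1RN and CXCL2 turned to between 0.25 and 0.68.

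The outer steps of the class order held no call. In the low against the very low class 0 of 10 genes passed in edgeR and limma-voom and 0 of 8 in DESeq2, 0 had an unadjusted p under 0.05 (11.6% of all tested genes had one, 6.36% with lower levels in the low class), and 0.0% of all tested genes passed in edgeR (1269 genes with an unadjusted p under 0.05, 281 called by DESeq2, 0 by limma-voom). Of the 10 estimates 7 lay below 0 (55.2% of all tested genes), and 0 of 10 had ranges without overlap (9.74%, 4.63% lower in the low class). In the very high against the high class 0 of 10 passed in edgeR and limma-voom and 0 of 8 in DESeq2, which gave no adjusted p for CXCL8 or IL1B, as did 0.0% of all tested genes in edgeR, and CXCL8 had an unadjusted p of 0.046, where 0.794% of all tested genes had one under 0.05, 0.392% with lower levels in the very high class. All 10 estimates lay below 0 (52.3% of all tested genes), and 0 of 10 had ranges without overlap (7.09%, 3.89% lower in the very high class). CXCL8 had 2.4, 0.249 and 0.528 CPM in the very high and 3.49, 1.02 and 63.2 CPM in the high replicates, and its log2 fold change of -4.37 was -1.05 without high replicate 3. These p-values do not show that the classes were alike.

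Receptors for these ligands were added after the values of the 10 genes were seen. CXCR2, which binds CXCL8, CXCL2 and CXCL5 in human and mouse, had 0, 67.1 and 1.17 CPM in very low replicates, 2.11, 26.5 and 0.579 CPM in the low, 0.939, 0.51 and 4.23 CPM in the high and 1.03, 0.125 and 0.923 CPM in the very high replicates. CXCR1, a receptor of CXCL8, was likewise highest in very low replicate 2 (91.9 CPM), low replicate 2 (43.2 CPM) and high replicate 3 (6.82 CPM). Both receptors are carried mainly by neutrophils. Their slopes were -1.74 and -1.59 log2 units per class, and neither passed (edgeR adjusted p of 0.0809 and 0.0849).

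The signalling receptor IL1R1 averaged 72.3 ± 79.2, 58.9 ± 7.89, 37.2 ± 6.15 and 38.0 ± 2.36 CPM over the 4 classes, very low first (SD, n = 3 each). The decoy receptor IL1R2, which binds interleukin-1 without signalling, averaged 15.4 ± 24.9, 8.6 ± 2.52, 1.78 ± 1.1 and 1.51 ± 1.28 CPM, and its 3 low libraries lay above all upper libraries. Neither slope passed (-0.34 and -1.21, edgeR adjusted p of 0.219 and 0.0677). The receptor IL6R had a slope above 0 that did not pass (0.57, SE 0.3, edgeR adjusted p = 0.227), with 73.9 ± 11.7 CPM among very high libraries and 21.7 ± 16.9 CPM among very low libraries (SD, n = 3 each). The TNF receptor TNFRSF1A stayed within a narrow range of 108.6 to 223.5 CPM in all 12 libraries, while TNFRSF1B, carried mainly by leukocytes, ran from 9.26 to 97.6 CPM. CCR2, which answers to CCL2, fell by 0.9 log2 units per class (SE 0.25, adjusted p = 0.0497 in edgeR) at no more than 3.61 CPM. It passed the filter on low counts through 3 very low libraries alone, so it could enter the test only as a gene higher there. CCR6, the receptor of CCL20, was too scarce to be tested, at 0 to 4.13 CPM.

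Lists of related genes, also chosen with earlier results of these data known, were counted over the same trend. In it 4.46% of all tested genes fell, 3.02% rose and 57.9% had a slope below 0. Of 12 tested NF-kB target effectors 3 fell and none rose, and all 12 slopes lay below 0 (median -0.86, against -0.04 over all tested genes). VCAM1, the endothelial adhesion molecule for lymphocytes and monocytes, fell by 0.86 per class (edgeR adjusted p = 0.0259), and averaged 70.3 ± 63.6, 41.1 ± 12.9, 16.9 ± 6.82 and 12.8 ± 3.08 CPM over the 4 classes, very low first (SD, n = 3 each). PLAUR, the urokinase receptor of migrating leukocytes, fell by 1.21 and SOD2, the mitochondrial superoxide dismutase, by 0.88 (edgeR adjusted p of 0.0328 and 0.0469). ICAM1, a neutrophil adhesion molecule, had a slope of -0.45 that did not pass (edgeR adjusted p = 0.207). The NF-kB subunits and inhibitors themselves held no call among 14 tested (median -0.21). The 4 with the smallest p, NFKBIE, BCL3, REL and NFKB2, had slopes of -0.46, -0.59, -0.59 and -0.32 (edgeR adjusted p of 0.0767 to 0.116).

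Of 17 tested chemokine receptors 4 fell, CCR2 among them, and none rose (median -0.61), where 4.46% of all tested genes fell. CCR1, a receptor of monocytes and neutrophils, fell by 1.29 per class (edgeR adjusted p = 0.0359) with 30.1 ± 38.6 CPM in the very low, 19.3 ± 12.2 in the low, 6.34 ± 5.03 in the high and 2.21 ± 1.02 CPM in very high libraries (SD, n = 3 each). CX3CR1, a receptor of resident macrophages and monocytes, fell by 0.49 and averaged 15.7 ± 0.217 CPM in the very high and 40.4 ± 9.3 CPM in the very low replicates (SD, n = 3 each, edgeR adjusted p = 0.0387). CXCR3, a receptor of activated T cells, fell by 1.03, and CCR2, given above, was the fourth (edgeR adjusted p of 0.0494 and 0.0497). CCR2 passed the filter on low counts only through 3 libraries of the very low class, which fixed the direction of its slope beforehand.

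Of 21 other chemokines 1 fell and none rose (median -0.67), a share near the 4.46% of all tested genes. It was CCL26, an eosinophil attractant, which fell by 0.77 per class (edgeR adjusted p = 0.0497). The T cell attractant CCL5 (-0.67) and the mucosal chemokines CXCL17 (-1.82) and CCL28 (-0.89) did not pass (edgeR adjusted p of 0.0527 to 0.0584). Of 14 other cytokines and colony-stimulating factors 1 fell and none rose (median -0.58), where 4.46% of all tested genes fell. This was CSF3, the growth factor of neutrophils, which fell by 2.41 per class (edgeR adjusted p = 0.0372) and averaged 32.2 ± 54.8, 14.1 ± 7.14, 0.763 ± 0.759 and 0.314 ± 0.322 CPM over the 4 classes, very low first (SD, n = 3 each). The lymphocyte factor IL7 (-0.65), TGFB1 (-0.38) and the neutrophil-inducing cytokine IL17F (-1.62) did not pass (edgeR adjusted p of 0.0509 to 0.084).

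In the interleukin-1 family with its receptors and inflammasome 1 of 12 fell and none rose (median -0.09), where 4.46% of all tested genes fell. It was the inflammasome adaptor PYCARD, which fell by 0.64 per class (edgeR adjusted p = 0.0457). IL1R2, given above, the inflammasome sensor NLRP3 (-1.18) and IL18 (-0.38) did not pass (edgeR adjusted p of 0.0677 to 0.209). In the IL-6 family with its receptors and signalling 1 of 9 fell and none rose (median -0.23), beside the same 4.46%. A single call in lists this short is no result about either list. LIF, a cytokine of implantation and inflammation, fell by 1.7 per class (edgeR adjusted p = 0.0466), with 0.274 ± 0.287 CPM in the very high and 13.6 ± 22.2 CPM in the very low replicates (SD, n = 3 each). The receptor chain OSMR (-0.54), the feedback inhibitor SOCS3 (-1.24) and OSM (-1.59) did not pass (edgeR adjusted p of 0.0658 to 0.129). In the TNF family 0 of 11 passed in edgeR, while all 11 slopes lay below 0 (median -0.62). CD40LG (-0.86), TNFRSF1B (-0.65), CD40 (-0.78) and LTA (-0.75) had the smallest p there (edgeR adjusted p of 0.0535 to 0.154). The trend calls over all tested genes, 820 in the full fit, ran from 1 to 1462 with 1 library left out. The 4.46% of the full fit is therefore no measure for the counts that follow. No gene of these 8 lists passed without very low replicate 2, very high replicate 2 or very high replicate 3. At most 2 passed without any other 1 of the high and very high libraries. Without any 1 of the low libraries 2 or 3 chemokine receptors and 2 effectors passed. Without very low replicate 3 the other chemokines had 3 calls and the IL-6 family 2, and without very low replicate 1 the counts were 2 for the interleukin-1 and 2 for the IL-6 family, 4 for the TNF family, 3 for the NF-kB subunits, 7 for the other chemokines, 6 for the chemokine receptors, 6 for the other cytokines and 3 for the effectors.

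Neutrophil markers, like 9 of the 10 genes, were highest in very low replicate 2. The 8 tested neutrophil markers had a mean log2 CPM of 2.7, 8.1 and 3.73 in the very low, 5.71, 6.3 and 5.09 in the low, 2.76, 3.08 and 4.51 in the high and 3.55, 2.52 and 3.22 in the very high replicates. Low replicate 2 came next, and high replicate 3 stood above the other high libraries, as for IL1B and IL1RN. Very low replicate 2 was also the highest library for macrophage and dendritic cell (6.1), T and NK cell (5.24) and epithelial markers (8.82). For epithelial markers, too, low replicate 2 came next (8.13). Of the 8 neutrophil markers 2 fell over the classes, S100A12 and LTF, where 4.46% of all tested genes fell. LTF is also made by uterine epithelium in mouse. The sum of 12 neutrophil markers in the table was 259.8 to 19248.0 CPM in the very low, 3407.2 to 5289.1 in the low, 380.0 to 1780.1 in the high and 229.2 to 313.2 CPM in very high libraries. LTF weighed heavily in it, with 115.6 to 15745.4 CPM in the very low and 2594.8 to 4555.8 CPM in the low libraries. The high libraries had 322.3 to 1612.3 and the very high 138.0 to 215.2 CPM of LTF. MPO and ELANE, granule enzymes made in the bone marrow, did not exceed 0.403 CPM, and CAMP and CATHL1 were listed at 0 in all 12 libraries.

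Macrophage and dendritic cell markers were also highest in very low replicate 2 but otherwise followed another order. Their mean log2 CPM over 10 tested markers was 5.33, 6.1 and 4.81 in the very low, 5.26, 4.33 and 6.01 in the low, 4.03, 3.32 and 3.79 in the high and 3.94, 3.35 and 3.01 in the very high replicates. Low replicate 2, with the second highest IL1B, had the lowest value of the lower 2 classes, and very low replicate 1, with the lowest IL1B, had a value near those of its class mates. Of the 10 markers 8 fell over the classes and none rose, where 4.46% of all tested genes fell. The sum of 14 markers was 368.8 to 989.7 CPM in the very low and 287.4 to 889.9 CPM in the low libraries. It was 138.2 to 202.1 CPM in the high and 97.8 to 210.0 CPM in very high libraries. AIF1, C1QA, C1QB and C1QC were listed at 0 in every library, with the same limit as for CAMP and CATHL1. The T and NK cell markers were lowest, within their classes, in low replicate 2 and high replicate 3. Of 13 of them 2 fell and none rose, and of 11 epithelial markers 2 fell and none rose, beside the same 4.46%. None of 6 B and plasma cell, 10 stromal fibroblast, 10 endothelial and 11 smooth muscle markers and the 1 tested blood marker passed. These counts depended on single libraries. So did the trend calls over all tested genes, which ran from 1 to 1462 with 1 library left out. The 4.46% of the full fit is therefore no measure for the counts that follow. Without very low replicate 1, 7 neutrophil, 8 T and NK cell and 5 epithelial markers fell, all 11 smooth muscle markers rose, and for macrophages and dendritic cells the count was 6 of 10. Without very low replicate 2 that count was 2, and no neutrophil, T and NK cell, epithelial or smooth muscle marker passed. Without very low replicate 3, 5 neutrophil and 3 T and NK cell markers fell. Leaving out any 1 of the high and very high libraries left 0 neutrophil, 0 or 1 T and NK cell and 0 to 3 macrophage and dendritic cell markers past the threshold. Without low replicates 1 and 2, each in turn, the neutrophil count was 1 and 0. The part of these cell types in the cytokine and chemokine values was not tested.

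**Figure D5:**
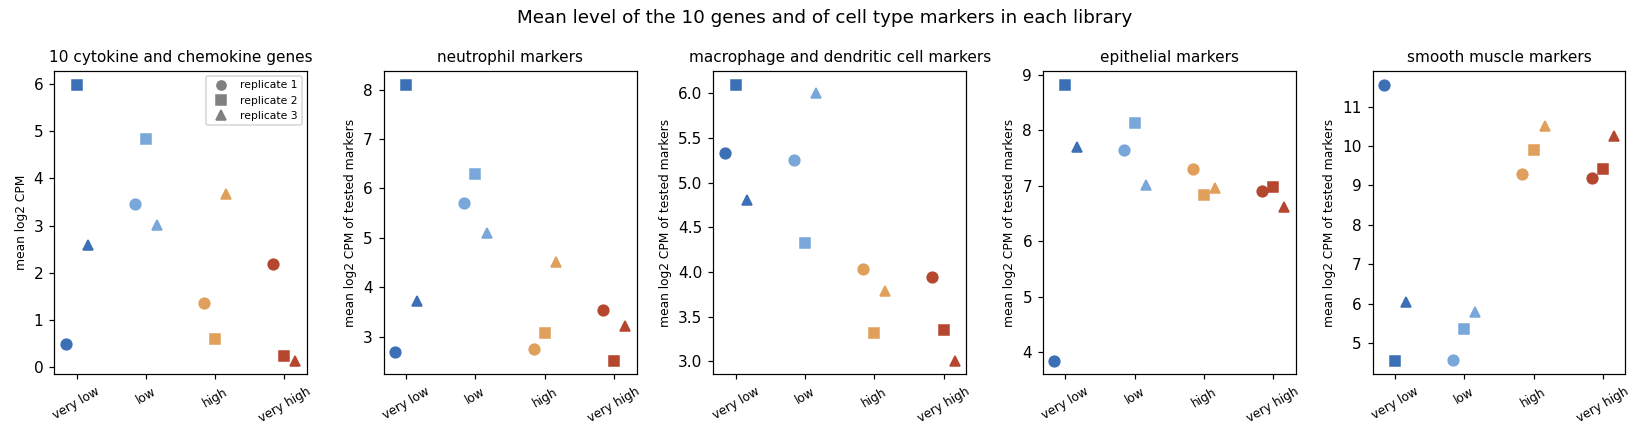
Mean log2 CPM in each library of the 10 cytokine and chemokine genes and of the tested neutrophil, macrophage and dendritic cell, epithelial and smooth muscle markers, by progesterone class; each point is 1 library and symbols mark replicates. Very low replicate 2 is highest for the 10 genes (5.99) and for neutrophil (8.1), macrophage and dendritic cell (6.1) and epithelial (8.82) markers. Very low replicate 1 has the lowest epithelial (3.85) and highest smooth muscle (11.56) values.

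Outside the 10 genes, those nearest in pattern to their mean log2 CPM over the 12 libraries were CCRL2, an atypical receptor that presents the attractant chemerin (Pearson correlation 0.96), the early lymphocyte activation antigen CD69 (0.95), the transcriptional cofactor EYA2 (0.95), the actin-binding protein MISP (0.94), the pantetheinase VNN1 (0.94) and the mucosal trefoil peptide TFF3 (0.94). VNN1 had 12.7, 681.7 and 30.9 CPM in very low replicates, 53.4, 200.6 and 47.5 CPM in the low, 11.9, 7.91 and 28.9 CPM in the high and 11.4, 4.61 and 9.23 CPM in the very high replicates. TFF3 had 23.0, 505.9 and 126.6 CPM in very low replicates, 182.3, 277.6 and 183.9 CPM in the low, 43.7, 34.8 and 145.8 CPM in the high and 24.9, 13 and 19.0 CPM in the very high replicates. Both were highest in very low replicate 2 and low replicate 2, and in both high replicate 3 stood above its class mates. EYA2, VNN1 and TFF3 fell over the classes, by 1.53, 1.71 and 1.23 per class (edgeR adjusted p of 0.0367, 0.0326 and 0.0457). They were picked for following the mean of the 10 genes over the same 12 libraries, and the slopes of all 10 lay below 0. Their falling slopes therefore follow from that choice and are no separate result.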

How the data were processed

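The authors deposited raw counts, whole numbers of reads per gene symbol, in 1 column per sample named by its title. Per the labels' protocols, oligo-dT captured messenger RNA was made into stranded TruSeq libraries and sequenced as paired reads in 1 pool. FastQC 0.11.2, Trimmomatic 0.32 and the builds UMD3.1 and bosTau8 are named, per the submitters' processing notes. The aligner, counting program, strand setting and annotation were not given in the sources used here, so reads of a gene and an overlapping partner cannot be told apart. IL1A and TNF each overlap another gene in the table of assembly ARS-UCD2.0, which gave neighbours and synonyms (13492 of 13930 symbols matched by name, 345 by synonym) and no coordinates.

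Genes were kept by filterByExpr (count minimum 10), scaled by TMM (factors 0.728 to 1.11) and tested with edgeR 4.0.16 in R 4.3.3, by quasi-likelihood, in 1 fit of all 12 libraries per model: a slope on class rank 1 to 4, or the 4 class means (8 residual degrees of freedom). Ranks were used since 1 bound has a different unit. Their order was taken from the class names. The place of the low class thus rests on its name and not on its labelled bound. Adjustment was by Benjamini-Hochberg over all 10959 tested genes, with a threshold of 0.05. The fit was checked on simulated data. SD is over 3 libraries. CPM use TMM-scaled library sizes, and log2 CPM a prior count of 2. Within classes, no library repeated another (chi-square of counts 22.6 to 297 per degree of freedom).

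Alternatives were RLE scaling, no filter, DESeq2 1.42.0, limma-voom (limma 3.58.1), fits of the classes compared, thinning to the smallest total, a replicate block, and leaving out libraries. Named were the 10 genes, per list up to 4 genes with the smallest p in the trend, the 6 nearest in pattern, and receptors and near copies of the 10 genes, which were added later. Members and lists were chosen with earlier results of these data known.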

Additional observations from a re-analysis of the deposited data

How the results depend on the processing

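Of the 10 genes, the 2 called in the trend became 5 with DESeq2 (no adjusted p for IL1B and CXCL8), 0 with limma-voom, 1 after thinning to 3772564 reads (9 tested, IL6 filtered out), 0 with the replicate block and 1 without very low replicates 1 and 2 together, and 0 to 5 when 1 library was left out. None of the 10 slopes changed sign under any of the alternatives run. Over all genes the 820 trend calls became 2008 with DESeq2, 360 with limma-voom, 180 with the replicate block, 191 without very low replicates 1 and 2, and 1 to 1462 when 1 library was left out. For very high against very low, 0 of the 10 became 4 with DESeq2 and 0 to 1 with 1 library left out. The 167 genes of that comparison became 1510 with DESeq2, 1 with limma-voom, 0 in a fit of the 6 libraries, 110 after thinning, 0 with the replicate block, 7 without very low replicates 1 and 2, and 0 to 643 with 1 library left out. For high against low, CXCL5 alone made the count 1 with DESeq2, in a fit of the 6 libraries and without very low replicates 1 and 2. Over all genes the count of 0 became 241, 26 and 140 under these 3 settings and 0 to 76 with 1 library left out. For low against very low it became 281 with DESeq2, 1 after thinning and 0 to 16 with 1 library left out. The causes were not tested.

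With 1 library left out, the log2 fold change of very high over very low ran from -4.36 to 0.66 for IL1B and from -6.14 to 0.88 for CCL20. That of high over low ran from -3.21 to 0.68 for IL1A, from -3.88 to 0.4 for IL1B, from -3.84 to 0.36 for IL1RN, from -3.06 to 1.68 for CXCL8 and from -2.41 to 0.25 for CXCL2, and limma-voom gave -1.11 for CXCL8. For low against very low the estimates of 10 of 10 genes, and for very high against high those of 7 of the 9 other than CXCL8, changed sign under at least 1 alternative, and none passed. Of 45 further named genes, which include those picked for a small p or for their pattern, 14 were called in the trend. Each of the 14 held in 2 to 14 of up to 19 alternatives. Replicate numbers are shared between classes but same-numbered libraries did not deviate together (correlation of deviations -0.298 to 0.294 over 18 pairs), so the block only shows the count of calls. Low counts limit IL6, IL1A and CCL20, which had 0 to 59, 1 to 74 and 0 to 217 reads a library.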
